A study of Mus musculus and Homo sapiens with 17 samples.

Results

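Papillomas labelled Dusp1 knockout (KO) were compared with squamous cell carcinomas (SCC) labelled wild type (WT), both from mouse skin. The members were chosen by their labels: 3 papilloma libraries and 3 WT SCC libraries, 6 of the 17 libraries of the series. All animals were C57BL/6-129 mice treated with DMBA, a mutagen that initiates skin tumours, and TPA, a phorbol ester that promotes them. The 3 papilloma libraries came from mice whose genotype label is DUSP1 KO, and the 3 carcinoma libraries from mice labelled WT, all treated alike. RNA was taken from full frozen sections, so every cell type of a section was read, although the labels name keratinocytes. Age, sex, the type of Dusp1 allele and the number of animals behind the libraries are not stated by the labels. The p-values therefore measure the spread among libraries, which may be technical. Lesion type and genotype label change together here, so an effect of either cannot be told apart from one of the other. WT skin of treated mice (3 libraries) and SCC labelled Dusp1 KO (2 libraries), called the KO carcinomas below, are given for side values.

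The epidermis renews itself from a basal layer of keratinocytes. A cell that leaves this layer switches from the basal keratins to a suprabasal pair, builds desmosomes, and finally replaces its membrane by a cornified envelope of cross-linked proteins embedded in ceramides. Papillomas are benign, outward growing tumours that keep much of this programme, whereas carcinomas invade and often keep less of it. DUSP1 is a phosphatase that switches off the MAP kinases p38, JNK and ERK. Growth factor signals through these kinases induce DUSP genes themselves, which closes a feedback loop.

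The 6 libraries held 35646654 to 47446662 counts each, and 22371 named genes passed the filter on low counts. A gene was called where the adjusted p of edgeR's quasi-likelihood test was under 0.05. By this rule 1175 genes (5.25%) differed, of which 780 (3.49%) were higher in the papillomas and 395 (1.77%) lower. At least 2-fold changes were seen for 564 of the higher and 185 of the lower genes. The median log2 fold change of all tested genes was 0.02, and counts of a typical gene varied by 36.6% between libraries of a group. In 5945 tested genes (26.6%) the 2 groups of libraries did not overlap. These held 1173 of the 1175 called genes, so groups that do not overlap add little to a call. Without WT carcinoma library 2 the number called was 478, and without papilloma library 1 it was 677, so calls lost in this way are named with their genes. In each gene list given below with none higher or none lower by edgeR's test, DESeq2 called none in that direction either unless its count is given. The labelled cell type was present in all 6 libraries: Krt14, the keratin of basal keratinocytes, was at 28074, 26739 and 24951 CPM (counts scaled to a library size of 1000000) in the WT carcinomas and at 47685, 27635 and 30817 CPM in the papillomas.

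**Figure D1:**
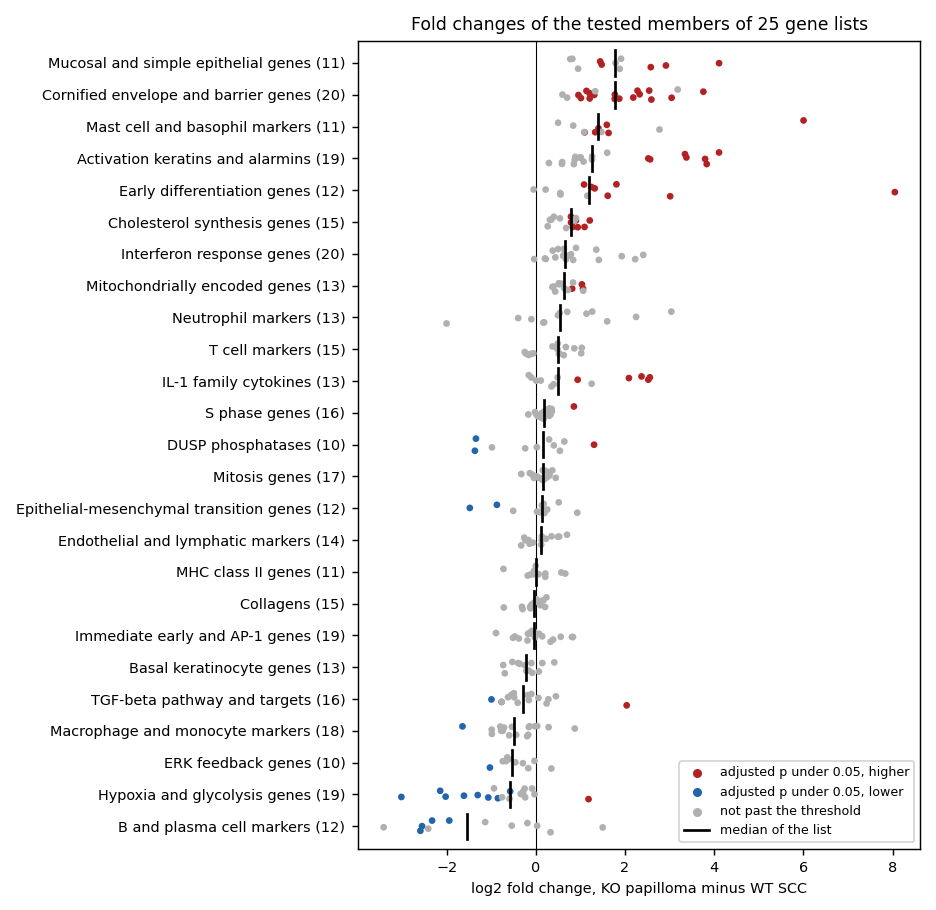
Log2 fold change (KO papilloma minus WT SCC) of each tested member of 25 of the 48 gene lists, with the number of members in brackets. Points are genes, red and blue points passed an adjusted p of 0.05, and black bars are list medians. Among the lists shown the medians run from -1.54 for B and plasma cell markers to 1.78 for mucosal and simple epithelial genes. Lists not shown reached further, with medians of -3.26 for skeletal muscle markers and 5.48 for hair follicle genes.

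Dusp1 transcript was not lower in the papillomas than in the WT carcinomas. The gene (ENSMUSG00000024190.7, chr17:26505590-26562128 on the minus strand, GRCm38) was at 73.3, 83.7 and 66.6 CPM in the WT carcinomas and at 129, 109 and 109.6 CPM in the papillomas. All 3 papilloma libraries lay above all 3 WT carcinoma libraries, but the difference did not pass the test (log2 fold change 0.64 ± 0.23, adjusted p = 0.152). It passed when only the 6 libraries were fitted (adjusted p = 0.0152) and without a filter on low counts (adjusted p = 0.0361). The KO carcinomas stood at 139 and 174 CPM. Counts per gene do not show which exons were read, so they do not test whether a functional transcript was made, and papilloma, KO carcinoma and WT carcinoma below mean libraries that carry these labels.

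Among the 10 DUSP genes listed, 1 was called higher and 2 lower, with a median log2 fold change of 0.16. Dusp4, which encodes a nuclear phosphatase induced by ERK, was at 9.79, 12.8 and 10.97 CPM in the WT carcinomas and at 5.26, 4.72 and 3.01 CPM in the papillomas, 2.58-fold lower (log2 fold change -1.37 ± 0.25 (SE), adjusted p = 0.00884). Every WT carcinoma lay above every papilloma, and the KO carcinomas, at 11.1 and 9.81 CPM, lay within the range of the WT carcinomas. Dusp10, whose product acts on p38 and JNK, was at 5.14, 5.46 and 4.52 CPM against 1.91, 1.75 and 2.28 CPM, 2.54-fold lower (log2 fold change -1.35 ± 0.30 (SE), adjusted p = 0.0268). Dusp9, which encodes a cytoplasmic phosphatase of ERK, went the other way, from 2.12, 1.48 and 2.07 CPM to 4.81, 5.82 and 3.38 CPM (log2 fold change 1.30 ± 0.28, adjusted p = 0.0203). Dusp6, the ERK-specific phosphatase that reads ERK output, was at 411, 504 and 462 CPM in the WT carcinomas and at 122, 244 and 329.5 CPM in the papillomas. Its groups did not overlap, yet the spread of the papillomas left it short of the threshold (log2 fold change -0.99, adjusted p = 0.129). Dusp2, Dusp5, Dusp7, Dusp8 and Dusp16 did not pass either (log2 fold changes 0.54, 0.02, -0.24, 0.30 and 0.40). The Dusp4 call was lost without WT carcinoma library 2 (adjusted p = 0.0541). That of Dusp10 was lost without any 1 of the 6 libraries (adjusted p up to 0.111), and that of Dusp9 without any 1 except papilloma library 3 (adjusted p up to 0.11).

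Of 10 genes that ERK induces, most of them to restrain itself, 1 was lower in the papillomas and 9 did not pass the test. By DESeq2 the count was 5. Spry2, a Sprouty adaptor that dampens receptor signalling to Ras, was at 32.2, 39.5 and 36.4 CPM in the WT carcinomas and at 13.5, 18.2 and 21.1 CPM in the papillomas, 2.04-fold lower (log2 fold change -1.03 ± 0.21 (SE), adjusted p = 0.0156). The groups did not overlap, and WT skin, at 14.5, 19.0 and 14.2 CPM, lay within the range of the papillomas or close to it. The call was lost without papilloma library 1 or WT carcinoma library 2 or 3 (adjusted p up to 0.0722). Of the 10 log2 fold changes 9 were below 0, with a median of -0.53 against 0.02 over all genes, among them Spred1 (log2 fold change -0.61, adjusted p = 0.0635), Etv5 (log2 fold change -0.67, adjusted p = 0.0532) and Spry4 (log2 fold change -0.74, adjusted p = 0.0998). Etv5 is a transcription factor and a common readout of ERK activity. The summed level of the 10 genes was 325 to 364 CPM in the papillomas and 433 to 473 CPM in the WT carcinomas (exact permutation test, two-sided p = 0.1, the smallest that 3 against 3 allows).

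Immediate early and AP-1 genes, which ERK and its sister kinases switch on within minutes, gave no call. None of 19 passed by edgeR (6 had an unadjusted p under 0.05), DESeq2 called 2 higher and 2 lower, and their median log2 fold change was -0.04. Fos, an AP-1 subunit, was at 66.7, 82.2 and 58.6 CPM against 41.3, 41.2 and 29.0 CPM (log2 fold change -0.90, adjusted p = 0.104), with no overlap. Fosl1, a subunit linked to invasive squamous cells, was at 27.2, 33.6 and 26.9 CPM against 22.6, 27.0 and 35.5 CPM, and its groups overlapped. Of 11 genes of EGFR ligands and receptors, Ereg (epiregulin) alone passed: 41.6, 29.8 and 37.2 CPM rose to 67.2, 85.0 and 48.9 CPM (log2 fold change 0.89 ± 0.23, adjusted p = 0.048), a call lost without any library other than papilloma library 3 (adjusted p up to 0.199).

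**Figure D2:**
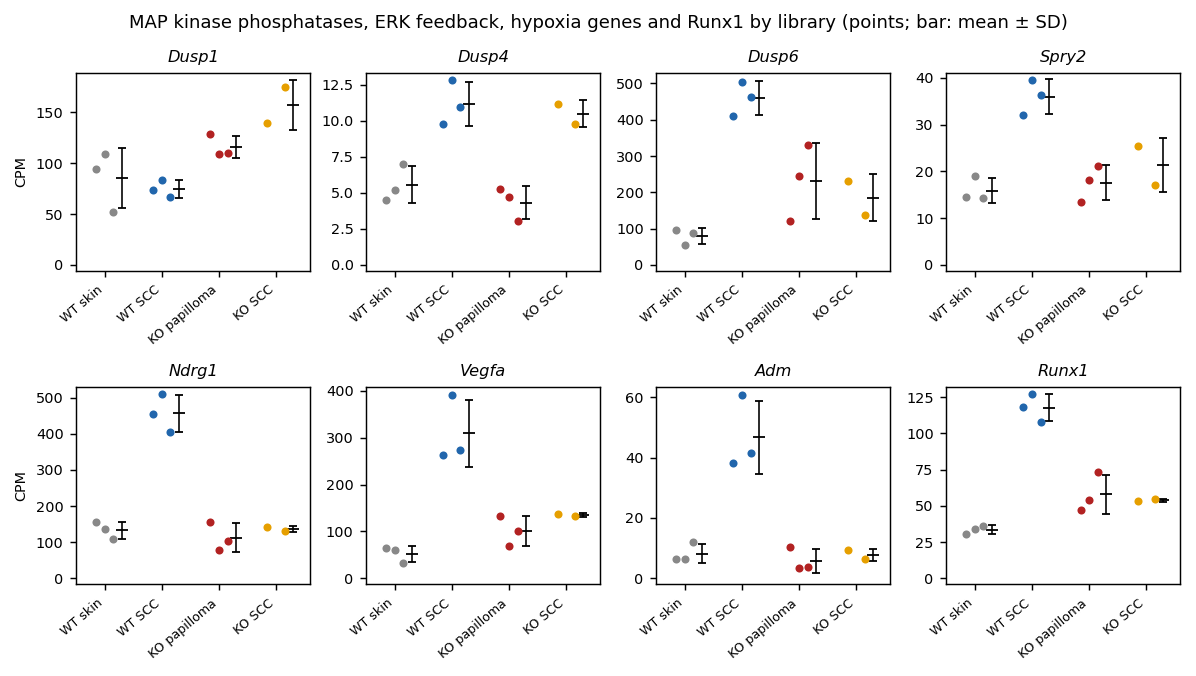
Levels in CPM (linear axes from 0) of Dusp1, Dusp4, Dusp6, Spry2, Ndrg1, Vegfa, Adm and Runx1 in each library of WT skin, WT SCC, KO papilloma and KO SCC; points are libraries and bars are mean ± SD. In every panel the 3 papilloma points lie clear of the 3 WT SCC points, above them for Dusp1 and below them for the other 7 genes.

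The clearest difference lay in terminal differentiation. Of 12 early differentiation genes 7 were higher in the papillomas and none lower by edgeR's test (8 and 0 by DESeq2), with a median log2 fold change of 1.20 against 0.02 over all genes. Krt1, the keratin that first marks suprabasal cells, was at 358, 382 and 458 CPM in the WT carcinomas and at 3737, 2232 and 3691 CPM in the papillomas, 8.06-fold higher (log2 fold change 3.01 ± 0.37 (SE), adjusted p = 0.000943). Its lowest papilloma was above the highest WT carcinoma and above WT skin (1142, 1570.3 and 516 CPM). Its partner Krt10 was at 911, 955 and 1059 CPM against 2468, 2109.8 and 2719.7 CPM, 2.50-fold higher (log2 fold change 1.32 ± 0.29 (SE), adjusted p = 0.0224). This call was lost without papilloma library 1 or 3 or any WT carcinoma library (adjusted p up to 0.102). Krt2, a keratin of the uppermost living layers, was at 0, 0 and 0.140 CPM in the WT carcinomas and at 0.505, 39.0 and 0.629 CPM in the papillomas. Its fitted log2 fold change of 8.05 rested on papilloma library 2, without which the adjusted p was 0.109, and the call was also lost without any WT carcinoma library. The list count was 3 without any 1 WT carcinoma library and 4 without papilloma library 1 or 3.

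Desmosomal cadherins of the suprabasal layers rose with the keratins. Dsg1a (desmoglein) was at 163, 119 and 179.7 CPM in the WT carcinomas and at 611, 447 and 353 CPM in the papillomas, 3.05-fold higher (log2 fold change 1.61 ± 0.21 (SE), adjusted p = 0.0016). Dsc1 (desmocollin) was at 125, 102 and 162 CPM against 580.0, 484 and 294 CPM, 3.50-fold higher (log2 fold change 1.81 ± 0.26 (SE), adjusted p = 0.00279). Neither gene had overlapping groups. Corneodesmosin, the glue protein of the outermost desmosomes, gave the same picture: Cdsn was at 98.8, 107 and 139.9 CPM in the WT carcinomas and at 647, 348 and 574 CPM in the papillomas, 4.54-fold higher (log2 fold change 2.18 ± 0.22 (SE), adjusted p = 0.000386). These 3 genes passed in each of the 11 alternative fits. None of the 3 passed between papillomas and KO carcinomas (log2 fold changes 0.67, -0.23 and 0.12, adjusted p = 0.23, 0.739 and 0.86).

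The cornified envelope and barrier list was higher almost throughout: 16 of 20 genes passed and none fell, with a median log2 fold change of 1.77. Flg, the filaggrin precursor that bundles keratin and later yields moisturising amino acids, was at 136, 96.5 and 125 CPM in the WT carcinomas and at 606, 497 and 629.8 CPM in the papillomas, 4.85-fold higher (log2 fold change 2.28 ± 0.25 (SE), adjusted p = 0.000482). Hrnr (hornerin), a related fused S100 protein, was at 61.4, 38.1 and 61.3 CPM against 611, 423 and 292 CPM, 8.25-fold higher (log2 fold change 3.04 ± 0.29 (SE), adjusted p = 0.000241). Flg2 rose from 2.44, 2.31 and 7.62 CPM to 64.8, 47.2 and 55.5 CPM, 13.5-fold higher (log2 fold change 3.76 ± 0.41 (SE), adjusted p = 0.0005). None of these 3 genes had overlapping groups, and each passed in all 11 alternative fits.

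Enzymes that process the envelope moved the same way. Klk5, a protease that frees dead cells from the surface, was at 11.4, 10.2 and 18.9 CPM against 117, 53.1 and 74.4 CPM (log2 fold change 2.59 ± 0.33, adjusted p = 0.00125). Its inhibitor Spink5 was at 502, 353 and 454 CPM against 1256, 2105 and 1422 CPM (log2 fold change 1.87 ± 0.30, adjusted p = 0.00464), and stood higher again in the KO carcinomas (2776 and 5088 CPM). Protease and inhibitor thus rose together in the papillomas. Tgm3 and Tgm1, the transglutaminases that cross-link the envelope, were also called (log2 fold change 2.33, adjusted p = 0.0247; log2 fold change 0.95, adjusted p = 0.014), as was Lor (loricrin), the main envelope protein (log2 fold change 1.21, adjusted p = 0.0415). Without any 1 WT carcinoma library these 3 calls were lost. They were also lost without papilloma library 1 (Tgm1 and Tgm3), 2 (Lor) or 3 (Tgm3 and Lor), with adjusted p up to 0.116 for Tgm3, 0.0647 for Tgm1 and 0.155 for Lor. Ivl (involucrin), an early envelope protein, did not pass (log2 fold change 0.60, adjusted p = 0.308).

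**Figure D3:**
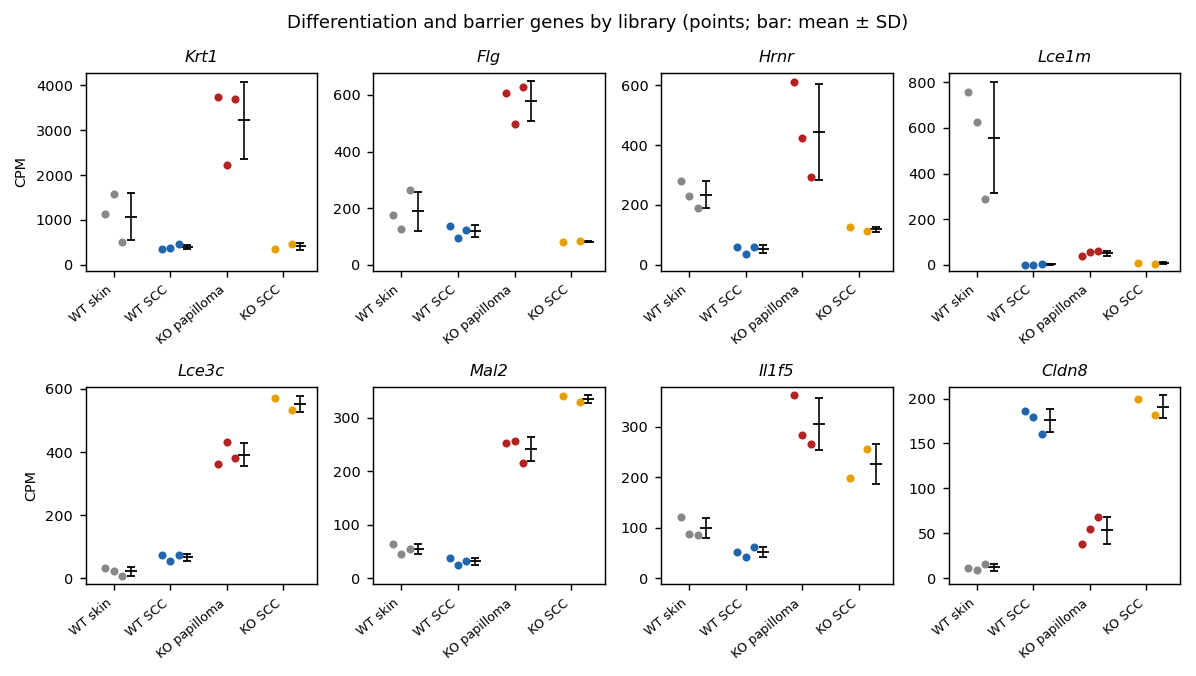
Levels in CPM (linear axes from 0) of Krt1, Flg, Hrnr, Lce1m, Lce3c, Mal2, Il1f5 and Cldn8 in each library of 4 groups; points are libraries and bars are mean ± SD. The papilloma points lie above the WT SCC points for 7 genes and below them for Cldn8, while the KO SCC points fall back towards WT SCC for Krt1, Flg and Hrnr but not for Lce3c and Mal2.

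Some of these genes carry the letters TGANTCA, the recognition sequence of AP-1, close to the start of transcription. Of the called genes of the list, 15 had a RefSeq entry, with 17 promoters. In the windows counted below, 4 of the 17 promoters (23.5%) held TGANTCA, so most called genes of the list lacked it there. Stretches of 120 bases that end just before the start are shown for 4 genes of the list that hold it, because AP-1 is a known regulator of envelope genes and all 4 were called higher. They are read 5′ to 3′ on the gene's strand, from RefSeq with build GRCm38.p6, with the AP-1 letters in capitals.
Lor (chr3:92083143-92083262, minus strand): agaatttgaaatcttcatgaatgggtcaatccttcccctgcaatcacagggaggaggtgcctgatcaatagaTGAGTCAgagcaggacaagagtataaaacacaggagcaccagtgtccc
Flg (chr3:93273426-93273545, plus strand): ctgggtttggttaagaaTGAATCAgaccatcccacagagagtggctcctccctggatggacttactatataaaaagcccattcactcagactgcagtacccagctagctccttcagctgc
Flg2 (chr3:93197153-93197272, plus strand): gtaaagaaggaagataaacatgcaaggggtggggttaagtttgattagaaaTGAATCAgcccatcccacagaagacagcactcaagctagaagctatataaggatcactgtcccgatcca
Rptn (chr3:93393579-93393698, plus strand): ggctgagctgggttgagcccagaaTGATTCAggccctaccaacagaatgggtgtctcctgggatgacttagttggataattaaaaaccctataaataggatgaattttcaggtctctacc
Rptn (repetin, an envelope protein of the filaggrin group) was at 391, 263 and 347 CPM in the WT carcinomas and at 2268, 2340.2 and 1219 CPM in the papillomas (log2 fold change 2.54 ± 0.39, adjusted p = 0.00348).

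In windows of 300 bases, from 250 before to 50 after the start, TGANTCA stood on either strand in 82 of 675 promoters of the higher genes (12.1%). It stood in 21 of 357 promoters of the lower genes (5.88%) and in 1155 of 18191 promoters of all tested genes with an entry (6.35%). The full site TGACGTCA, bound by CREB-like factors and 1 base longer than the AP-1 letters, which it cannot contain, stood in 0.889% of the promoters of higher genes, 1.96% of those of lower genes and 2.56% of all. None of 20 promoters of the late cornified envelope family held TGANTCA. Of the gene names tested, 64.9% had an entry, and a match of letters is a description of the window.

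Position along the genome showed the same difference as a block. The epidermal differentiation complex, a cluster on chromosome 3 that holds most envelope genes (chr3:90511034-93564643, GRCm38), had 70 tested protein-coding genes. Of these 35 (50%) were higher and none lower, with a median log2 fold change of 2.48. A run of 16 neighbouring tested genes from Lce1g to Lce1m (chr3:92750148-93019060) was higher without a gap. A second run of 9 reached from 2210017I01Rik to Lce1f, and a run of 4 from Flg2 to Rptn. Of the S100 genes at the edges of the complex, which encode calcium-binding proteins, 0 of 13 tested passed by edgeR and 1 by DESeq2 (unadjusted p under 0.05 in 3 by edgeR), with a median of 0.31. The fit of the 6 libraries called 3 higher and the fit without a filter 4. In 6 of the 13 every papilloma lay above every WT carcinoma, among them S100a3 (log2 fold change 2.94, adjusted p = 0.229) and S100a7a (log2 fold change 1.07, adjusted p = 0.117), and also S100a8 and S100a9. Over all tested genes the groups did not overlap, in either direction, in 26.6%. S100a6 was at 1448, 1269 and 1123 CPM in the WT carcinomas and at 1258, 1186 and 1285 CPM in the papillomas.

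Families counted here were chosen after their values were seen. All 21 late cornified envelope genes, which encode small envelope proteins laid down last, were higher in the papillomas, with log2 fold changes of 2.56 to 4.43 and a median of 3.25. In all 21 the groups did not overlap. With 1 library left out, between 16 and 21 stayed past the threshold. Lce1m was at 1.63, 1.05 and 4.57 CPM in the WT carcinomas and at 39.7, 55.8 and 61.0 CPM in the papillomas, 21.6-fold higher (log2 fold change 4.43 ± 0.55 (SE), adjusted p = 0.00107). Lce3c, of the subgroup known to be induced by wounding and psoriasis, was at 72.2, 54.1 and 72.8 CPM against 362, 433 and 381 CPM, 5.91-fold higher (log2 fold change 2.56 ± 0.45 (SE), adjusted p = 0.0073). Members of the family differed in the other groups. Lce1m was at 756, 628 and 288 CPM in WT skin and 9.96 and 5.96 CPM in the KO carcinomas, whereas Lce3c was at 33.9, 24.2 and 6.31 CPM in WT skin and 571 and 534 CPM in the KO carcinomas. Lce1e, of the same subgroup as Lce1m, was at 73.8, 41.9 and 41.4 CPM in WT skin and 68.8 and 51.4 CPM in the KO carcinomas. Sequences of the family are alike, and how reads that match several members were counted is not given, so the split between single members is uncertain.

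Small proline-rich genes, the bridging proteins of the envelope, were all above 0 in log2 fold change (15 of 15, median 2.27), yet 4 passed. Sprr2b was at 4.70, 2.76 and 4.57 CPM in the WT carcinomas and at 44.2, 91.5 and 53.9 CPM in the papillomas, 15.8-fold higher (log2 fold change 3.98 ± 0.38 (SE), adjusted p = 0.000241). The number called was 9 with DESeq2, 15 in the fit of 6 libraries and 1 to 4 with 1 library left out. Of 11 Skint genes, relatives of butyrophilin of which Skint1 selects epidermal gamma-delta T cells, 8 were higher. Skint9 was at 0.290, 0.185 and 0.932 CPM against 11.03, 11.1 and 15.1 CPM, 26.3-fold higher (log2 fold change 4.71 ± 0.46 (SE), adjusted p = 0.00026). Of them 6, Skint9 to Skint11, formed a run on chromosome 4 (chr4:112385969-114245028). Of 25 tested clade B serpins, protease inhibitors of squamous epithelium, 4 were higher (7 by DESeq2, and 2 without papilloma library 2 or WT carcinoma library 1 or 2), among them Serpinb2 at 33.6, 21.8 and 32.2 CPM against 284, 246 and 189 CPM (log2 fold change 3.04 ± 0.24, adjusted p = 0.000109).

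Of 25 genes that make the lipid barrier 16 were higher and none lower, with a median log2 fold change of 1.01. Smpd1, the acid sphingomyelinase that frees ceramide, was at 60.9, 52.8 and 73.5 CPM in the WT carcinomas and at 248, 181 and 231 CPM in the papillomas, 3.52-fold higher (log2 fold change 1.82 ± 0.20 (SE), adjusted p = 0.000482). Nipal4 (ichthyin), mutated in ichthyosis, was at 43.5, 40.6 and 45.1 CPM against 119, 86.9 and 117 CPM, 2.50-fold higher (log2 fold change 1.32 ± 0.13 (SE), adjusted p = 0.000307). Cers3, the ceramide synthase of very long acyl chains, was at 146, 133 and 149 CPM against 336, 336 and 266 CPM, 2.20-fold higher (log2 fold change 1.13 ± 0.17 (SE), adjusted p = 0.00344). These 3 genes passed in all 11 alternative fits, and the count was 10 without WT carcinoma library 2. The KO carcinomas held Smpd1 at 235 and 194 CPM, Nipal4 at 93.8 and 100 CPM and Cers3 at 544 and 447 CPM.

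Cell junction genes changed in composition. Of 20 tight and gap junction genes 10 were higher and 1 was lower. Ocln (occludin) was at 5.95, 4.63 and 6.76 CPM in the WT carcinomas and at 21.9, 21.5 and 21.8 CPM in the papillomas, 3.75-fold higher (log2 fold change 1.91 ± 0.16 (SE), adjusted p = 0.000123). Cldn1, the claudin that seals the granular layer, was at 35.3, 28.2 and 37.4 CPM against 129.9, 109 and 93.7 CPM, 3.29-fold higher (log2 fold change 1.72 ± 0.22 (SE), adjusted p = 0.00121). Against these rises, Cldn8 fell from 186, 179.9 and 161 CPM to 38.0, 54.9 and 68.0 CPM, 3.27-fold lower (log2 fold change -1.71 ± 0.23 (SE), adjusted p = 0.00184). In the KO carcinomas Cldn8 stood at 199.9 and 182 CPM, close to the WT carcinomas, whereas Ocln stood at 39.0 and 38.6 CPM, above the papillomas. Gjb5, a connexin of gap junctions, was at 12.5, 12.7 and 13.4 CPM in the WT carcinomas and at 39.0, 33.0 and 43.5 CPM in the papillomas, 3.00-fold higher (log2 fold change 1.58 ± 0.18 (SE), adjusted p = 0.000603).

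Of 20 transcription factors of keratinocyte differentiation 8 were higher and 1, Ovol2, was lower (log2 fold change -0.81, adjusted p = 0.021). Pou2f3, a POU factor of suprabasal cells, was at 5.46, 4.18 and 6.20 CPM in the WT carcinomas and at 23.8, 16.6 and 27.8 CPM in the papillomas, 4.30-fold higher (log2 fold change 2.11 ± 0.25 (SE), adjusted p = 0.000864). Ovol1, which ends proliferation in cells that leave the basal layer, was at 63.9, 75.2 and 67.6 CPM against 243, 121 and 176 CPM, 2.61-fold higher (log2 fold change 1.39 ± 0.21 (SE), adjusted p = 0.00348). Grhl1, a grainyhead factor of the barrier, was at 91.3, 87.0 and 85.6 CPM against 167, 146 and 168 CPM, 1.82-fold higher (log2 fold change 0.87 ± 0.13 (SE), adjusted p = 0.00272). Klf4 and Grhl3, which also drive barrier formation, did not pass (log2 fold change 0.39, adjusted p = 0.148; log2 fold change 0.55, adjusted p = 0.148). The count of higher factors was 3 without WT carcinoma library 2 and 5 without WT carcinoma library 1, and Ovol2 was lost without papilloma library 1 or any WT carcinoma library (adjusted p up to 0.11).

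Basal keratinocyte genes did not follow. None of 13 was called by edgeR (2 had an unadjusted p under 0.05 and 2 were lower by DESeq2), with a median log2 fold change of -0.21. Trp63, the master factor of stratified epithelium, was at 455, 446 and 407 CPM in the WT carcinomas and at 259.5, 264 and 283 CPM in the papillomas. Its groups did not overlap, but the test was not passed (log2 fold change -0.70, adjusted p = 0.0616). Krt5 was at 7698, 9124 and 8830.0 CPM against 9209, 7078 and 7620.5 CPM, with overlap.

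Keratins and peptides of activated epidermis gave a mixed result, with 7 of 19 higher and none lower (median 1.26). The classical keratins Krt6a and Krt16 did not pass (log2 fold change 0.58, adjusted p = 0.376; log2 fold change 0.59, adjusted p = 0.633), and the alarmins S100a8 and S100a9 did not pass either, at 793, 1980.4 and 614 CPM for S100a8 and 637, 1345 and 519.7 CPM for S100a9 in the papillomas. The called members were envelope genes of the Lce3 group, Sprr2d, the IL-36 gene Il1f6 and the antimicrobial peptide Defb3. Defb3, a beta-defensin, was at 2.09, 1.46 and 1.12 CPM in the WT carcinomas and at 8.74, 61.6 and 9.83 CPM in the papillomas, where library 2 stood apart (log2 fold change 4.11 ± 0.77, adjusted p = 0.0105). Its call was lost without WT carcinoma library 2 or 3 (adjusted p up to 0.0644), and that of Sprr2d without WT carcinoma library 2 (adjusted p = 0.051). The list count fell to 2 without WT carcinoma library 2 and to 3 and 4 without libraries 3 and 1, and it was 12 by DESeq2.

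Of 11 genes of mucosal and simple epithelia, which normal epidermis makes little of, 5 were higher and none lower (median 1.78). Mal2, a membrane protein of apical transport, had the smallest p of this list: 38.3, 25.5 and 32.2 CPM in the WT carcinomas against 252, 256 and 216 CPM in the papillomas, 7.55-fold higher (log2 fold change 2.92 ± 0.18 (SE), adjusted p = 2.34e-05). Krt4, the keratin of the oral and oesophageal lining, was at 13.7, 8.83 and 9.62 CPM against 50.7, 266 and 237 CPM, 17.2-fold higher (log2 fold change 4.11 ± 0.55 (SE), adjusted p = 0.00178). Papilloma library 1 was well below the other two in Krt4, yet above all WT carcinomas. Krt23 was at 8.59, 5.95 and 10.4 CPM against 55.9, 39.6 and 53.3 CPM, 5.97-fold higher (log2 fold change 2.58 ± 0.29 (SE), adjusted p = 0.000532). The KO carcinomas held Mal2 at 339.9 and 329.7 CPM and Krt4 at 85.8 and 145 CPM.

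Cytokines of the IL-1 family were split. Of 13 genes 5 were higher and none lower, with a median log2 fold change of 0.49. Il1f5, which encodes the antagonist of the IL-36 receptor, was at 52.8, 41.5 and 61.1 CPM in the WT carcinomas and at 364, 284 and 266 CPM in the papillomas, 5.88-fold higher (log2 fold change 2.56 ± 0.21 (SE), adjusted p = 0.000115). Il1f6, which encodes the agonist IL-36 alpha, was at 37.5, 24.3 and 36.3 CPM against 180.5, 242 and 140.0 CPM, 5.74-fold higher (log2 fold change 2.52 ± 0.27 (SE), adjusted p = 0.000439). Agonist and antagonist of 1 receptor thus rose together. Il33, an alarmin kept in the nucleus, was at 33.8, 31.8 and 35.9 CPM against 189.5, 133 and 108 CPM, 4.25-fold higher (log2 fold change 2.09 ± 0.23 (SE), adjusted p = 0.000512). Il18, made by suprabasal cells and released after caspase cleavage, was at 11.5, 6.34 and 11.2 CPM against 49.2, 58.1 and 42.1 CPM, 5.17-fold higher (log2 fold change 2.37 ± 0.26 (SE), adjusted p = 0.0005). The fifth called gene was Il1f8, which encodes IL-36 beta (log2 fold change 0.94, adjusted p = 0.0198), lost without papilloma library 1 or WT carcinoma library 1, 2 or 3 (adjusted p up to 0.107). The inflammatory agonists Il1a and Il1b overlapped between groups (log2 fold change 0.11, adjusted p = 0.89; log2 fold change -0.16, adjusted p = 0.855).

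Few chemokine genes were called. None of 10 genes that attract neutrophils was called by edgeR or DESeq2 (0 had an unadjusted p under 0.05). Of 18 genes that attract lymphocytes and monocytes 1 was higher and 1 lower by edgeR (7 had an unadjusted p under 0.05), against 3.49% and 1.77% of all genes. DESeq2 called 2 higher and 3 lower. Their log2 fold changes ran from -2.63 to 1.71. Ccl27a, which draws skin-homing T cells, was at 13.4, 10.3 and 11.2 CPM in the WT carcinomas and at 27.0, 16.6 and 23.6 CPM in the papillomas (log2 fold change 0.95 ± 0.21, adjusted p = 0.022). Ccl2, which draws monocytes, was at 28.9, 28.4 and 25.4 CPM against 7.81, 17.0 and 8.73 CPM (log2 fold change -1.30 ± 0.31, adjusted p = 0.0333). The Ccl27a call was lost without papilloma library 1 or 3 or WT carcinoma library 2 or 3 (adjusted p up to 0.11). That of Ccl2 was lost without papilloma library 1 or 3 or WT carcinoma library 1, 2 or 3 (adjusted p up to 0.121).

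Of 15 cholesterol synthesis genes 7 were higher in the papillomas and 8 did not pass. All 15 log2 fold changes were above 0, and the median was 0.79. Lss (lanosterol synthase) was at 42.8, 46.2 and 50.04 CPM in the WT carcinomas and at 131, 68.9 and 121 CPM in the papillomas, 2.31-fold higher (log2 fold change 1.21 ± 0.23 (SE), adjusted p = 0.0103). Sqle (squalene epoxidase) was at 149.6, 154 and 161 CPM against 311, 238 and 252 CPM, 1.72-fold higher (log2 fold change 0.79 ± 0.14 (SE), adjusted p = 0.00911). The summed level of the 15 genes was 1699 to 1722 CPM in the WT carcinomas and 2478 to 3143 CPM in the papillomas. All 7 calls were lost without WT carcinoma library 2 (for these 2 genes adjusted p = 0.0539 and 0.0555), 3 were called without WT carcinoma library 1 or 3 and 4 without papilloma library 1. Lss was also lost without WT carcinoma library 1 (adjusted p = 0.0543).

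Of 19 genes tied to low oxygen and glycolysis 8 were lower in the papillomas and 1 was higher, with a median log2 fold change of -0.59. Ndrg1, a stress protein strongly induced by hypoxia, was at 455, 509 and 405 CPM in the WT carcinomas and at 157, 77.4 and 102 CPM in the papillomas, 4.07-fold lower (log2 fold change -2.02 ± 0.24 (SE), adjusted p = 0.000838). Adm (adrenomedullin), a peptide that dilates vessels, was at 38.2, 60.7 and 41.7 CPM against 10.3, 3.43 and 3.64 CPM, 8.10-fold lower (log2 fold change -3.02 ± 0.44 (SE), adjusted p = 0.00283). Car9, the carbonic anhydrase used as a histological mark of hypoxia, was at 19.6, 26.7 and 22.1 CPM against 7.28, 2.99 and 5.19 CPM, 4.43-fold lower (log2 fold change -2.15 ± 0.29 (SE), adjusted p = 0.00166). Bnip3, a mitophagy receptor, was at 172, 168 and 159.9 CPM against 80.3, 64.2 and 57.6 CPM, 2.47-fold lower (log2 fold change -1.30 ± 0.20 (SE), adjusted p = 0.00383). In each of the 4 the highest papilloma lay below the lowest WT carcinoma. The KO carcinomas were at 143 and 131 CPM for Ndrg1, 9.24 and 6.43 CPM for Adm, 7.56 and 6.31 CPM for Car9 and 123 and 96.4 CPM for Bnip3.

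Vegfa, the main growth factor of blood vessels, was at 262, 392 and 275 CPM in the WT carcinomas and at 133, 68.5 and 102 CPM in the papillomas, 3.06-fold lower (log2 fold change -1.61 ± 0.30 (SE), adjusted p = 0.00988). The KO carcinomas were at 137 and 132 CPM and so nearer to the papillomas. The glucose transporter Slc2a1 and the glycolytic enzyme Ldha did not pass (log2 fold change -0.94, adjusted p = 0.256 for Slc2a1; log2 fold change -0.03, adjusted p = 0.959 for Ldha). Of the enzymes that set the flux into glycolysis, Pfkfb3 was lower (log2 fold change -0.58 ± 0.15, adjusted p = 0.0462) and Pfkfb4 was higher (log2 fold change 1.18 ± 0.19, adjusted p = 0.00455). The Pfkfb3 call was lost without any 1 of the 6 libraries (adjusted p up to 0.19). Endothelial and lymphatic markers held no called gene among 14 by edgeR (1 with an unadjusted p under 0.05) and 1 by DESeq2, and their summed level was 295 to 349 CPM in the WT carcinomas and 289 to 371 CPM in the papillomas.

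The letters ACGTG, the core of the element bound by hypoxia-inducible factors, are shown in capitals in the 120 bases before the start of 4 genes that were lower. On the printed strand the core reads ACGTG or, in reverse, CACGT, and the E-box CACGTG holds both. Ero1a is the RefSeq name of the gene listed as Ero1l, an oxidase of the endoplasmic reticulum, and P4ha1 encodes a subunit of the enzyme that hydroxylates proline in collagen.
Car9 (chr4:43506906-43507025, plus strand): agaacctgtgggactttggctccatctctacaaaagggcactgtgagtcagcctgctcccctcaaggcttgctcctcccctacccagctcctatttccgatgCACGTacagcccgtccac
Bnip3 (chr7:138909507-138909626, minus strand): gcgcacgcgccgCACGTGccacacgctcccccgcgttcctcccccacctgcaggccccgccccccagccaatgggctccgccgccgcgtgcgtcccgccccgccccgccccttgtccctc
P4ha1 (chr10:59323176-59323295, plus strand): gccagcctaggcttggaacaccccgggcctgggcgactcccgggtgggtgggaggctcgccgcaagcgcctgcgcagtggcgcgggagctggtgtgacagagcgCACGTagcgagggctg
Ero1a (chr14:45318573-45318692, minus strand): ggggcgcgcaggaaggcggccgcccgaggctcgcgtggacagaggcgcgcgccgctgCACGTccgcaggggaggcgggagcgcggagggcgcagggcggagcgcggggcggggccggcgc
In the windows of 300 bases the core stood on either strand in 7 of 9 promoters of the 7 lower genes of the list that had an entry (77.8%). It stood in 25.2% of promoters of all lower genes, 17.5% of those of all higher genes and 23.0% of those of all tested genes. The list was composed of known hypoxia genes, so this share describes the list and not the change. P4ha1 was at 51.9, 62.2 and 58.8 CPM in the WT carcinomas and at 33.1, 34.1 and 28.5 CPM in the papillomas (log2 fold change -0.85 ± 0.16, adjusted p = 0.0108), a call lost without WT carcinoma library 2 (adjusted p = 0.0588). Ero1l was lower as well (log2 fold change -1.07, adjusted p = 0.0291), a call lost without papilloma library 2 or 3 or WT carcinoma library 1, 2 or 3 (adjusted p up to 0.131).

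In the squamous lineage, Notch and epithelial-mesenchymal transition lists few genes were called, all of them lower, against 1.77% called lower over all genes. Runx1, a factor known to promote mouse skin tumours, was at 118, 127 and 108 CPM in the WT carcinomas and at 47.0, 53.7 and 73.1 CPM in the papillomas, 2.03-fold lower (log2 fold change -1.02 ± 0.16 (SE), adjusted p = 0.00389). It was the 1 called gene of 10 in the squamous lineage list (median log2 fold change -0.32). Hes1, a repressor downstream of Notch, was at 104, 126 and 110.1 CPM against 72.3, 61.4 and 73.7 CPM, 1.64-fold lower (log2 fold change -0.71 ± 0.12 (SE), adjusted p = 0.00555). It was the 1 called gene of 12 in the Notch list (median log2 fold change -0.11). Snai2 (Slug), which represses epithelial genes, was at 55.5, 63.3 and 57.8 CPM against 31.7, 31.6 and 32.8 CPM, 1.83-fold lower (log2 fold change -0.88 ± 0.16 (SE), adjusted p = 0.0107). With Foxc2 it made up the 2 lower genes among 12 of epithelial-mesenchymal transition, while Vim (vimentin) overlapped between groups (log2 fold change 0.51, adjusted p = 0.28). Of these 12 genes 9 had log2 fold changes above 0 (median 0.14), among them Twist1 (log2 fold change 0.93, adjusted p = 0.195). Snai2 and Foxc2 were lost without WT carcinoma library 2 (adjusted p = 0.0596 and 0.0812).

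In the TGF-beta list of 16 genes 2 were lower and 1 higher. Smad7, the feedback inhibitor that the pathway induces, was at 20.6, 31.0 and 26.8 CPM in the WT carcinomas and at 14.5, 11.5 and 13.3 CPM in the papillomas, 1.996-fold lower (log2 fold change -0.997 ± 0.18 (SE), adjusted p = 0.00925). Tgfb1, the ligand, was at 38.1, 60.1 and 59.0 CPM against 30.6, 30.1 and 31.5 CPM, 1.71-fold lower (log2 fold change -0.77 ± 0.17 (SE), adjusted p = 0.023). Bambi, a decoy receptor, was higher (log2 fold change 2.04 ± 0.52, adjusted p = 0.0474). The Smad7 call was lost without WT carcinoma library 2 (adjusted p = 0.0555) and that of Bambi without any 1 library (adjusted p up to 0.174). That of Tgfb1 was lost without papilloma library 1, 2 or 3 or WT carcinoma library 2 or 3 (adjusted p up to 0.115).

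Few matrix and proliferation genes were called. None of 15 collagens and none of 18 matrix metalloproteinases and inhibitors was called by edgeR, and DESeq2 called 0 collagens and 3 proteinase genes (unadjusted p under 0.05 by edgeR in 0 and 4). The summed level of the proteinase list was 847 to 926 CPM in the WT carcinomas and lower in every papilloma, at 509 to 801 CPM. That of the collagens overlapped. Thbs1 (thrombospondin) was the 1 lower gene of 14 matricellular proteins (log2 fold change -0.90 ± 0.23, adjusted p = 0.0438), lost without any 1 library (adjusted p up to 0.147). None of 17 mitosis genes was called by edgeR or DESeq2 (0 with an unadjusted p under 0.05), with a median of 0.16. Mki67, the standard mark of cycling cells, was at 210.3, 198 and 171 CPM in the WT carcinomas and at 181, 163 and 183 CPM in the papillomas. Of 16 S phase genes Rrm2 (ribonucleotide reductase) passed (log2 fold change 0.85 ± 0.22, adjusted p = 0.047), lost without papilloma library 1 or 3 or WT carcinoma library 1, 2 or 3 (adjusted p up to 0.179). In this list 14 log2 fold changes were above 0 and 2 below (median 0.18). Its summed level was 844 to 895 CPM in the WT carcinomas and higher in every papilloma, at 957 to 1105 CPM. None of 15 p53 targets and cell cycle inhibitors was called by edgeR or DESeq2 (2 with an unadjusted p under 0.05).

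Stress genes moved singly. Among 13 NRF2 targets, genes of the antioxidant response, Gstm1 (a glutathione transferase) was lower, at 145, 164 and 167 CPM in the WT carcinomas and 57.0, 79.3 and 91.9 CPM in the papillomas (log2 fold change -1.06 ± 0.21, adjusted p = 0.0137). Txnrd1 (thioredoxin reductase) was higher, at 26.7, 29.3 and 35.2 CPM against 50.8, 51.3 and 48.3 CPM (log2 fold change 0.72 ± 0.17, adjusted p = 0.0319). Among 14 genes of the amino acid stress response, Ddit3 (CHOP), the factor that ends in cell death, was lower at 20.2, 19.7 and 15.7 CPM against 10.5, 11.6 and 9.33 CPM (log2 fold change -0.83 ± 0.20, adjusted p = 0.0337). The serine synthesis enzymes Phgdh and Psph were higher (log2 fold change 0.58, adjusted p = 0.0232 for Phgdh; log2 fold change 0.74, adjusted p = 0.0397 for Psph), while Atf4, the central factor, overlapped between groups (log2 fold change -0.01, adjusted p = 0.986). Each of these 5 calls was lost without 2 or more single libraries (adjusted p up to 0.0614, 0.14, 0.132, 0.125 and 0.179, in this order): Gstm1 without papilloma library 1 or WT carcinoma library 2, Txnrd1 without papilloma library 1, 2 or 3 or WT carcinoma library 1 or 2, Ddit3 without papilloma library 1, 2 or 3 or WT carcinoma library 1 or 2, Phgdh without papilloma library 1, 2 or 3 or WT carcinoma library 2 or 3 and Psph without papilloma library 1 or 2 or WT carcinoma library 1, 2 or 3.

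Of 13 genes encoded by mitochondrial DNA 3 were higher and none lower, with a median of 0.63. Their summed level was 27323, 22657 and 19419.5 CPM in the WT carcinomas and 36081, 36321 and 37212 CPM in the papillomas. mt-Nd1, a subunit of complex I, was at 3990.4, 3219.9 and 2738 CPM against 6376, 6856 and 7108 CPM (log2 fold change 1.03 ± 0.19, adjusted p = 0.0101). Every papilloma sum lay above every WT carcinoma sum. No gene of the list was called without WT carcinoma library 2 or 3 (mt-Nd1 adjusted p = 0.071 and 0.0557).

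Immune cell genes differed by cell type. In bulk RNA fewer cells of a type and less RNA per cell cannot be told apart. Of 12 B and plasma cell markers 4 were lower and none higher, and their summed level was 374, 401 and 404 CPM in the WT carcinomas against 73.9, 133 and 31.3 CPM in the papillomas. Igkc, the kappa light chain constant gene, was at 132, 135 and 132 CPM against 19.8, 41.1 and 7.08 CPM, 5.87-fold lower (log2 fold change -2.55 ± 0.47 (SE), adjusted p = 0.0094). Jchain, which joins secreted IgA and IgM, was at 57.8, 55.5 and 48.2 CPM against 9.27, 20.8 and 2.02 CPM, 5.02-fold lower (log2 fold change -2.33 ± 0.58 (SE), adjusted p = 0.0427). Igha, the IgA heavy chain, was at 165, 195 and 203 CPM against 26.0, 58.6 and 8.54 CPM, 6.03-fold lower (log2 fold change -2.59 ± 0.64 (SE), adjusted p = 0.0419). Ighm, the IgM heavy chain, overlapped between groups (9.64, 8.79 and 12.7 against 15.3, 8.98 and 7.47 CPM). The KO carcinomas held Igkc at 8.89 and 11.6 CPM and WT skin at 299, 326 and 426 CPM. Without papilloma library 1 none of the list was called (Igkc adjusted p = 0.0513), 1 was called without any 1 WT carcinoma library, and 2 without papilloma library 3. Jchain was lost in 4 of these fits (adjusted p up to 0.148) and Igha in 5 (adjusted p up to 0.148).

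Macrophage and monocyte markers gave 1 lower gene of 18 by edgeR (5 had an unadjusted p under 0.05) and 2 by DESeq2. Their log2 fold changes were below 0 in 15 genes and above 0 in 3, with a median of -0.49. Lyz2, the lysozyme of myeloid cells, was at 198, 179 and 261 CPM in the WT carcinomas and at 65.0, 99.5 and 39.1 CPM in the papillomas (log2 fold change -1.65 ± 0.38, adjusted p = 0.0308), a call lost without papilloma library 1 or 3 or WT carcinoma library 1, 2 or 3 (adjusted p up to 0.11). The summed level of the list overlapped, at 2624 to 3099 CPM against 2559 to 3494 CPM. Among 13 dendritic and Langerhans cell genes the changes were opposed. Cd207 (langerin), which defines Langerhans cells, was at 4.67, 3.42 and 5.01 CPM against 18.4, 14.1 and 10.9 CPM, 3.31-fold higher (log2 fold change 1.73 ± 0.31 (SE), adjusted p = 0.00834). Cd209a, a lectin of dermal dendritic cells, was at 2.53, 3.25 and 5.12 CPM against 0, 0.195 and 0.157 CPM, 29.8-fold lower (log2 fold change -4.90 ± 0.62 (SE), adjusted p = 0.0012). WT skin held Cd209a at 27.9, 30.0 and 41.3 CPM and the KO carcinomas at 0.0289 and 0.224 CPM. Cd207 was lost without WT carcinoma library 2 (adjusted p = 0.0508).

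Of 11 mast cell and basophil markers 6 were higher and none lower, and their summed level was 41.3, 45.0 and 61.8 CPM in the WT carcinomas against 108, 198 and 144 CPM in the papillomas. Cpa3, the carboxypeptidase of mast cell granules, was at 6.74, 6.53 and 9.76 CPM against 14.9, 27.3 and 15.7 CPM, 2.51-fold higher (log2 fold change 1.33 ± 0.27 (SE), adjusted p = 0.017). Cma1 (chymase) was at 5.37, 5.62 and 8.06 CPM against 12.5, 21.5 and 16.4 CPM, 2.64-fold higher (log2 fold change 1.40 ± 0.25 (SE), adjusted p = 0.00766). Tpsb2, a tryptase, was at 5.37, 6.65 and 8.43 CPM against 15.1, 28.5 and 19.7 CPM, 3.09-fold higher (log2 fold change 1.63 ± 0.27 (SE), adjusted p = 0.0053). Papilloma library 2 was the highest for each of these 3. The receptor Kit, also made by melanocytes, did not pass (log2 fold change 0.50, adjusted p = 0.338). The sum includes Tpsab1, described further below. The count was 2 without WT carcinoma library 2 and 3 without library 1 (Cma1 adjusted p = 0.0521 without library 2, Cpa3 adjusted p = 0.0958 and 0.078).

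T cell genes gave no call, with none of 15 passing by edgeR or DESeq2 (1 with an unadjusted p under 0.05) and a median log2 fold change of 0.49. Cd3e, a chain of the T cell receptor complex, was at 0.697, 0.638 and 1.30 CPM in the WT carcinomas and at 0.930, 1.19 and 1.57 CPM in the papillomas, all low and overlapping. Among 10 cytotoxic lymphocyte genes Eomes and Gzmc were higher. Eomes, a T-box factor, was at 0.377, 0.329 and 0.443 CPM against 9.62, 4.60 and 3.22 CPM, 15.1-fold higher (log2 fold change 3.91 ± 0.57 (SE), adjusted p = 0.0026). Prf1 (perforin), a defining gene of killer cells, was at 0.145, 0.103 and 0.0233 CPM against 0.133, 0.268 and 0 CPM, which includes a library at 0. Gzmc was at 1.10, 0.782 and 0.885 CPM against 1.81, 1.87 and 1.78 CPM (log2 fold change 0.98 ± 0.23, adjusted p = 0.0322) and was lost in 8 of the 11 alternative fits, among them those without papilloma library 1, 2 or 3 or WT carcinoma library 2 or 3 (adjusted p up to 0.152).

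None of 20 interferon response genes was called by edgeR (8 with an unadjusted p under 0.05) and 4 were higher by DESeq2, although 19 had log2 fold changes above 0 (median 0.66). For some of them papilloma library 1 stood apart: Isg15, a ubiquitin-like protein, was at 18.5, 3.58 and 3.09 CPM in the papillomas and at 4.53, 4.22 and 4.73 CPM in the WT carcinomas. None of 13 genes of MHC class I presentation was called by edgeR (3 with an unadjusted p under 0.05) and 1 was higher by DESeq2. None of 8 gamma-delta T cell markers was called by either tool (0 with an unadjusted p under 0.05). None of 11 MHC class II genes was called by edgeR or DESeq2 (2 with an unadjusted p under 0.05), and H2-Aa was at 295, 239 and 284 CPM against 219.7, 338 and 259 CPM. None of 13 immune checkpoint genes was called by either tool (1 with an unadjusted p under 0.05), and Cd274 (PD-L1) was at 3.48, 2.70 and 5.08 CPM against 4.01, 5.57 and 3.70 CPM. Neutrophil markers had no call among 13 by either tool (1 with an unadjusted p under 0.05), with a summed level of 900.2, 691 and 900.2 CPM against 1535, 3418 and 1208 CPM, S100a8 and S100a9 included.

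**Figure D4:**
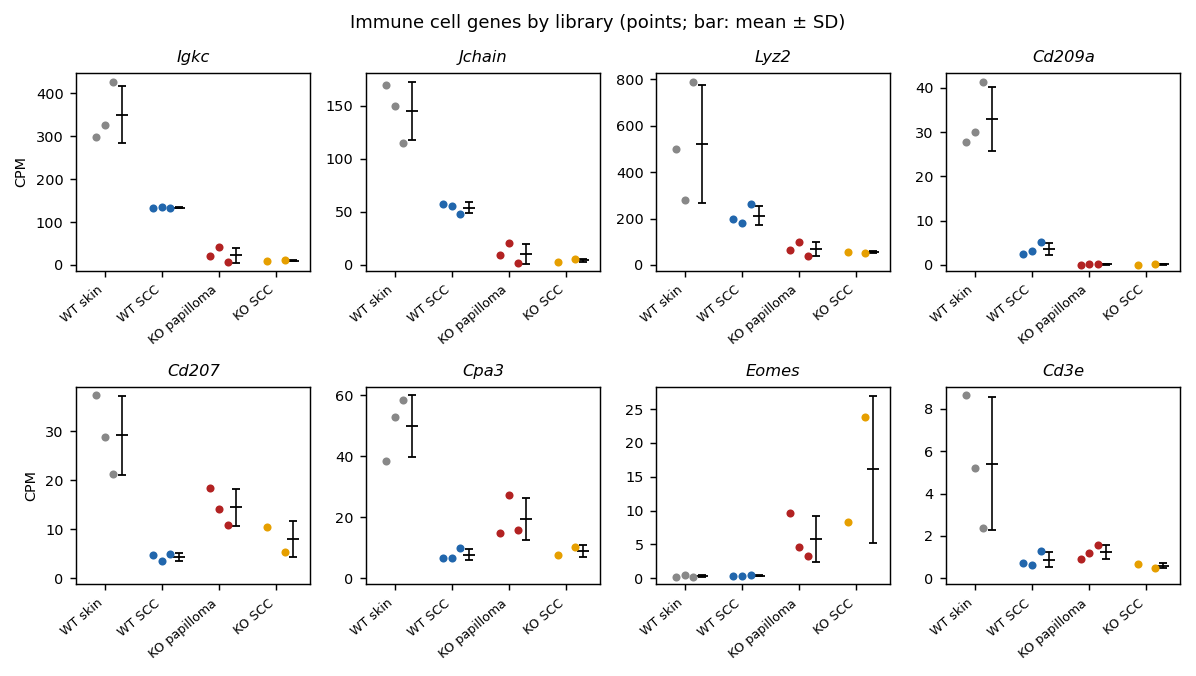
Levels in CPM (linear axes from 0) of Igkc, Jchain, Lyz2, Cd209a, Cd207, Cpa3, Eomes and Cd3e in each library of 4 groups; points are libraries and bars are mean ± SD. Papilloma points lie below WT SCC points for Igkc, Jchain, Lyz2 and Cd209a, above them for Cd207, Cpa3 and Eomes, and overlap them for Cd3e.

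Sections differed in other tissue, which was measured by markers. Skeletal muscle genes were present mainly in WT carcinoma library 3: the summed level was 18.4, 32.0 and 182 CPM in the WT carcinomas and 23.8, 22.0 and 24.3 CPM in the papillomas. The 2 lower muscle genes, Tnnt3 and Acta1, were at 0.697, 1.89 and 20.5 CPM and at 0.377, 1.89 and 38.7 CPM in the WT carcinomas and at 0.186, 0.122 and 0.236 CPM and 0.213, 0.146 and 0.498 CPM in the papillomas. Both calls were lost without any 1 papilloma library, and that of Acta1 also without WT carcinoma library 3 (adjusted p up to 0.0877 for Tnnt3 and 0.157 for Acta1). Hair follicle genes were high in papilloma libraries 1 and 2, with a summed level of 741, 299.9 and 53.8 CPM in the papillomas against 63.7, 64.2 and 56.4 CPM in the WT carcinomas. None of 16 hair genes was called by edgeR (12 with an unadjusted p under 0.05), and 9 were higher by DESeq2. Fibroblast markers overlapped, at 1917 to 3252 CPM in the WT carcinomas and 1386 to 3053 CPM in the papillomas, with Dpp4 the 1 called gene of 15 (log2 fold change 1.11 ± 0.25, adjusted p = 0.0277), lost without any library other than papilloma library 3 (adjusted p up to 0.122). Sebaceous, adipocyte, melanocyte and red blood cell lists held no called gene by edgeR or DESeq2 (unadjusted p under 0.05 in 3, 4, 1 and 0 genes by edgeR). The part of tissue makeup in the results above was not tested.

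The 12 largest rises and the 12 largest falls among called genes with a mean log2 CPM of at least 1 over the 11 mouse libraries reached beyond these lists. WT skin counts in that mean, so some of these genes were near 0 in both groups compared. The rule took only genes whose groups did not overlap and left out predicted genes, pseudogenes and clone names. The rises held Wfdc21, a secreted protein with a whey acidic domain, at 0.377, 0.824 and 1.37 CPM in the WT carcinomas against 14.9, 37.9 and 42.4 CPM in the papillomas, 36.3-fold higher (log2 fold change 5.18 ± 0.51 (SE), adjusted p = 0.000282). They also held Serpina12 (vaspin), an inhibitor of kallikreins, at 2.38, 2.43 and 4.08 CPM against 97.6, 39.0 and 42.8 CPM, 20.1-fold higher (log2 fold change 4.33 ± 0.43 (SE), adjusted p = 0.000302). Gadl1, a decarboxylase, was at 1.10, 1.54 and 1.93 CPM against 48.4, 28.2 and 34.1 CPM, 24.0-fold higher (log2 fold change 4.58 ± 0.51 (SE), adjusted p = 0.000525). Wnt3, a ligand of the Wnt pathway, was at 0.348, 0.0824 and 0.443 CPM against 9.03, 3.65 and 5.50 CPM, 21.0-fold higher (log2 fold change 4.39 ± 0.51 (SE), adjusted p = 0.000666). All 4 passed in every alternative fit. Tgm6 (a transglutaminase), Adh6a (an alcohol dehydrogenase) and Pyy (a peptide hormone), with log2 fold changes of 5.83, 4.36 and 4.31, were each lost without WT carcinoma library 2 (adjusted p = 0.102, 0.0926 and 0.075), Tgm6 also without libraries 1 and 3 and Adh6a without library 1.

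Among the falls, Cacna2d3, a calcium channel subunit, was at 9.55, 11.6 and 10.6 CPM in the WT carcinomas against 1.59, 1.80 and 0.917 CPM in the papillomas, 7.35-fold lower (log2 fold change -2.88 ± 0.34 (SE), adjusted p = 0.000704). Nov (Ccn3), a matricellular protein, was at 29.1, 52.1 and 58.1 CPM against 4.84, 3.36 and 0.393 CPM (log2 fold change -4.02 ± 0.92, adjusted p = 0.029), lost without any 1 library (adjusted p up to 0.0927). Abra, a muscle gene, was at 0 counts in all 3 papillomas and at 0.116, 0.165 and 0.512 CPM in the WT carcinomas, where 3 counts correspond to 0.0618 to 0.0871 CPM per library, and was lost without papilloma library 1 or 3 (adjusted p up to 0.061). Myoc (myocilin) was likewise at 0.174, 0.659 and 0.676 CPM in the WT carcinomas and 0.0531, 0.0730 and 0 CPM in the papillomas, against 75.3, 37.6 and 59.1 CPM in WT skin, and Abra at 8.07, 17.8 and 7.37 CPM there. The remaining large falls were the muscle genes Tnnt3 and Klhl41, the immunoglobulin genes Ighg2c, Iglc1 and Igha, and Cd209a, Baiap3 and Adm. Klhl41 was lost without papilloma library 1, 2 or 3 or WT carcinoma library 3 and Myoc without papilloma library 1 or 3 or WT carcinoma library 2 or 3 (adjusted p up to 0.142 and 0.0846). Ighg2c was lost without papilloma library 1 or 3 or WT carcinoma library 1 or 2 and Iglc1 without papilloma library 2 or WT carcinoma library 1, 2 or 3 (adjusted p up to 0.171 and 0.11).

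Some of the largest differences followed the genotype label in every library. Dynlt1b, a dynein light chain on chromosome 17 (chr17:6430112-6436296, plus strand, GRCm38), was at 0.465, 0.371 and 0.489 CPM in the WT carcinomas and 0.348, 0.222 and 0.176 CPM in WT skin. It was at 27.9, 37.9 and 27.5 CPM in the papillomas and 37.3 and 37.8 CPM in the KO carcinomas (log2 fold change 6.14 ± 0.25, adjusted p = 1.19e-06 for papilloma against WT SCC). Tpsab1, a mast cell tryptase 1.19 Mb from Dusp1 (chr17:25343245-25345562, minus strand), was at 0.348, 0.803 and 0.373 CPM in the WT carcinomas and 0.422, 2.01 and 0.0529 CPM in WT skin, where Cpa3 was at 38.6, 52.8 and 58.4 CPM. In the papillomas Tpsab1 was at 21.6, 43.3 and 35.3 CPM and in the KO carcinomas at 33.4 and 28.9 CPM. The level of Tpsab1 thus separated the labels while Cpa3 was highest in WT skin.

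For a pair of other genes of chromosome 17 a near-identical copy moved in the opposite direction. Atp6v0c, a proton pump subunit 2.37 Mb from Dusp1, was at 44.0, 57.5 and 54.0 CPM in the WT carcinomas and at 13.3, 9.10 and 11.9 CPM in the papillomas, log2 fold change -2.18, adjusted p = 0.000115. Its copy Atp6v0c-ps2 was at 0.755, 1.13 and 1.19 CPM against 142, 88.8 and 125 CPM (log2 fold change 6.84, adjusted p = 1.19e-06), and at 117 and 102 CPM in the KO carcinomas. Hmga1, a chromatin protein 1.03 Mb from Dusp1, was at 195, 232 and 213 CPM against 90.9, 69.6 and 107 CPM (log2 fold change -1.25, adjusted p = 0.00124). Its copy Hmga1b was at 15.2, 19.3 and 20.2 CPM against 116, 95.5 and 132 CPM (log2 fold change 2.65, adjusted p = 3.44e-05), and at 124 and 134 CPM in the KO carcinomas. These 2 genes and their copies were singled out after their values were seen. Baiap3, a secretion factor 1.28 Mb from Dusp1, did not follow the genotype label, with WT skin at 2.93, 3.16 and 0.934 CPM and the KO carcinomas at 1.88 and 2.83 CPM, which overlap. It fell from 13.2, 13.8 and 13.2 CPM in the WT carcinomas to 0.770, 1.02 and 0.446 CPM in the papillomas, 17.8-fold lower (log2 fold change -4.16 ± 0.47 (SE), adjusted p = 0.000559). Within 20 Mb of Dusp1 28 of 656 tested genes were higher and 26 lower, or 8.23%, against 5.17% called elsewhere. Reads of near-identical copies cannot be assigned with certainty, and what part strain differences near the targeted gene had was not tested.

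Side values from the KO carcinomas show where a carcinoma of the same genotype label stood. In the same fit 64 of 22371 genes (0.286%) differed between papillomas and KO carcinomas, a comparison chosen after values were seen that uses the same papilloma libraries. Flg was called (log2 fold change 2.81 ± 0.30, adjusted p = 0.0162), with the KO carcinomas at 80.8 and 83.4 CPM, below the papillomas and below the WT carcinomas. Krt10 (log2 fold change 2.91 ± 0.36, adjusted p = 0.0196) and Krt1 (log2 fold change 2.97 ± 0.43, adjusted p = 0.03) were called too, with the KO carcinomas at 226 and 422 CPM and 359.5 and 462 CPM. Cldn8 was called as lower in the papillomas (log2 fold change -1.83 ± 0.25, adjusted p = 0.0236). Lce3c (log2 fold change -0.50 ± 0.47, adjusted p = 0.646), Mal2 (log2 fold change -0.47 ± 0.19, adjusted p = 0.27) and Ndrg1 (log2 fold change -0.29 ± 0.26, adjusted p = 0.625) did not pass, which does not show that they were alike. Hrnr (log2 fold change 1.89, adjusted p = 0.0455) and Gjb5 (log2 fold change 1.42, adjusted p = 0.03) were called as higher in the papillomas. The IL-1 family genes Il1f5, Il1f6, Il33 and Il18 did not pass (log2 fold changes 0.43, -0.67, -0.73 and 1.12, adjusted p = 0.382, 0.281, 0.216 and 0.144). With 2 KO carcinoma libraries against 3 papillomas, small differences were not detectable.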

How the data were processed

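RNA of full frozen sections was extracted and sequenced from stranded mRNA libraries, per the labels' protocols. The authors deposited raw read counts per gene. HISAT2, StringTie, DESeq and build mm10 are listed in the submitters' processing notes without versions or order. How reads that match several places were counted is not stated there or in the labels, and values of near-identical genes are uncertain.

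From the 55988 features, 1456 without a name (0.115 to 0.239% of counts in the 6 libraries) were left out, 103 repeated names stayed separate features, and 18 names were turned into dates by a spreadsheet. The 11 mouse libraries were fitted together with edgeR 4.0.16 (R 4.3.3) on the deposited counts, with TMM scaling, filterByExpr, a quasi-likelihood test of papilloma minus WT SCC, and Benjamini-Hochberg adjustment over 22371 genes. Levels are CPM, counts scaled to a library size of 1000000. On simulated data for 21889 genes of this comparison, 39 of 100 genes changed 2-fold and 87 of 100 changed 4-fold were recovered, and 3 of 21689 unchanged genes were called. The changed genes were drawn from those with a mean log2 CPM above 1 over the mouse libraries, so recovery of weaker genes was not measured. The simulated counts varied independently around a pooled mean per gene. They held no differences in tissue makeup between libraries, so these rates need not hold for the real data. A count of 0 allows up to 3 counts, or 0.0618 to 0.0871 CPM, which covers counting error only.

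Genes were named by a rule: Dusp1, the DUSP list, the 12 largest rises and the 12 largest falls among called genes with a mean log2 CPM of at least 1 and groups that did not overlap, and in each of 48 gene lists the 4 called genes of smallest p. The samples compared and the lists were chosen with earlier results of these data known. Families, other genes and the comparison with KO SCC were chosen after their values were seen. Positions come from GENCODE M21 on GRCm38, promoters from RefSeq on GRCm38.p6. Alternatives were other size factors (RLE), no filter, DESeq2 1.42.0, a fit of the 6 libraries, a replicate block and leaving out each library. The 6 libraries of the human line A431 were not used.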

Additional observations from a re-analysis of the deposited data

How the results depend on the processing

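The number of called genes was 1174 with RLE size factors, 1854 without a filter on low counts, 2259 with DESeq2, 1797 in a fit of the 6 libraries and 478 to 1100 with 1 library left out, against 1175. Higher genes made up 66.4% of the calls and 61.5 to 77.6% across the alternatives. Dusp1 passed in the fit of the 6 libraries (log2 fold change 0.65, adjusted p = 0.0152) and without a filter (0.65, adjusted p = 0.0361). It did not pass with DESeq2 (adjusted p = 0.0577) or with 1 library left out (adjusted p 0.193 to 0.353). With a replicate block 803 genes were called, 559 higher and 244 lower, of which 780 were shared with the fit without it, and Dusp1 had a log2 fold change of 0.65 (adjusted p = 0.123). Deviations of same-numbered libraries from their group means had correlations of -0.14, 0.17 and 0.16, and those of differently numbered libraries -0.36 to 0.25. Deviations from a mean of 3 libraries are tied to each other, so these values cannot decide whether the numbers pair the samples. Of 93 genes named by the rule 86 were called. All 11 alternatives kept 35 of these, 51 were lost under at least 1, 34 of them only when a library was left out, and none changed direction. The number of called members stayed within 1.5 times in 12 of 48 lists. These 12 include lists without a call in any fit, such as collagens and mitosis genes, so they overstate how stable the counts were. With 3 libraries a group, genes that did not pass cannot be read as unchanged.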
